A study of Homo sapiens with 6 samples.

Results

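The genes described here carry out MHC class I antigen presentation in HEK293 cells, an established line derived from human embryonic kidney. They were chosen by symbol, each as its primary copy in the count table, and all 9 of 9 were found among 63677 genes: HLA-B, HLA-C, HLA-E, B2M, TAP1, TAP2, TAPBP, PSMB8 and PSMB9. Poly(A) RNA was sequenced in 6 libraries, 2 in each of 3 groups, from cells transfected with Lipofectamine RNAiMAX and collected 48 hours later. The control group received the NTC siRNA, which the labels call no template control. The siRAB3IP group received siRNA against circRAB3IP, and the siCAMSAP1 group received siRNA against circCAMSAP1, both circular RNAs. The labels do not name separate cultures within a group. Each p-value sets a difference between groups against the spread between libraries of a group, pooled over the 3 groups and moderated across genes. That spread may be technical variation only.

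The labels of the series disagree on which library belongs to which group. Groups and replicate numbers here follow the column names of the authors' deposited tables. The record titles give another group for 4 of the 6 libraries, and the genotype field for 3. Sorting the libraries by title and by genotype field gives the same 3 pairs, with the knockdown names exchanged. When the libraries were grouped by record titles, edgeR's quasi-likelihood test called 0 genes in any of the 3 comparisons after Benjamini-Hochberg adjustment, and the adjusted p of every class I gene was 1. At an unadjusted p under 0.05 it gave 330, 437 and 456 genes for siRAB3IP against control, siCAMSAP1 against control and siRAB3IP against siCAMSAP1, none of them among the 9, and DESeq2 called 0, 1 and 0 genes. Every difference below therefore holds only for the grouping of the authors' tables. Title and table name agree for 2 libraries, control replicate 1 and siCAMSAP1 replicate 2, but the genotype field gives the second to the other knockdown. Control replicate 1 is thus the library on which all 3 labels agree, and the other is a knockdown by each of them. Between these, the second was 1.17-fold (B2M) to 3.99-fold (PSMB8 and PSMB9) of the first in CPM (the count of a gene scaled to the size of its library), and 1.71-fold for TAP1 and 1.53-fold for TAPBP, with no replicate to set beside it.

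MHC class I molecules show peptides from inside the cell to T cells and natural killer cells. The proteasome cuts proteins into peptides, the TAP transporter carries these into the endoplasmic reticulum, and tapasin holds the transporter beside an empty class I heavy chain until a peptide binds. The heavy chain reaches the surface with the light chain beta-2-microglobulin. Interferons raise the transcription of these genes in many cell types, through IRF factors and the coactivator NLRC5, and NF-kB binds an enhancer upstream of several of them.

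Of the 9 genes, 8 lie within 2.82 Mb of chromosome 6, from 30457244 to 33282164 in hg19, the build of the count table, and B2M lies on chromosome 15. TAP2, PSMB8, TAP1 and PSMB9 stand within 37.8 kb, from 32789610 to 32827362. RefSeq promoter windows (GRCh38.p14, 250 bases before to 50 after each start site) were matched for 8 of the 9 by symbol, with 10 windows in all because TAP1 and PSMB8 have 2 each. HLA-E has no entry. The 250 bases upstream of the start site are shown for the 3 genes of the loading complex and B2M, all higher in at least 1 knockdown, and for HLA-B, which differed between the knockdowns. HLA-C and PSMB9 were also called higher in at least 1 knockdown and are not shown. Capitals mark the NF-kB consensus and the interferon response element (GAAA, any 2 bases, GAAA) on either strand. Positions are counted from the start site, with negative numbers upstream.

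The regions are chr6:31357180-31357429 for HLA-B, chr15:44711267-44711516 for B2M, chr6:32853705-32853954 for the second TAP1 window, chr6:32838740-32838989 for TAP2 and chr6:33314079-33314328 for TAPBP. B2M is on the plus strand and the others on the minus strand, and each is written 5′ to 3′ in the direction of transcription.
HLA-B: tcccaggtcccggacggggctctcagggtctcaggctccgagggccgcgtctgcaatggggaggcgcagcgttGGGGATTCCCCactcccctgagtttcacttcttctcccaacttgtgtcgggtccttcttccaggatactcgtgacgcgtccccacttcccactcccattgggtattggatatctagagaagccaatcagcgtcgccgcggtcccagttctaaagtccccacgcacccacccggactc
B2M: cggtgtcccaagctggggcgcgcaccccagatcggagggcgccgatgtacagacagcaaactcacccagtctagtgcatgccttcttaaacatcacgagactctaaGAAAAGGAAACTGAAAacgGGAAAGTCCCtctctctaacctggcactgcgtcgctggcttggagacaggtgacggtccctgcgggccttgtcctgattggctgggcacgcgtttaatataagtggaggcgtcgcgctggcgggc
TAP1: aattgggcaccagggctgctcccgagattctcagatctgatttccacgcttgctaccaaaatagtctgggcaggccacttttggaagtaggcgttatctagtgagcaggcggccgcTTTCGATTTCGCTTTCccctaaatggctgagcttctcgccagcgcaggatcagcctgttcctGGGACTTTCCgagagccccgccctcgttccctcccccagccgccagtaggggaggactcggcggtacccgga
TAP2: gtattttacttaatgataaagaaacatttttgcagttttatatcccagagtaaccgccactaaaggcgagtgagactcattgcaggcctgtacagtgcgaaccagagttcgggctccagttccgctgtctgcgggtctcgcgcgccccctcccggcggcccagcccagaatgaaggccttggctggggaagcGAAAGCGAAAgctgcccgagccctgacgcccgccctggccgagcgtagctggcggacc
TAPBP: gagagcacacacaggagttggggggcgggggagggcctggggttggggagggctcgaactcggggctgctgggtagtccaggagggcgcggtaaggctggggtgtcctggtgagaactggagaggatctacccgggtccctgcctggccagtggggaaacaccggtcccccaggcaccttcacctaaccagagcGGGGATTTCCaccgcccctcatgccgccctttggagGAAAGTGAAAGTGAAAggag

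The HLA-B stretch held 2 overlapping NF-kB matches, the first at -177, and no match to the interferon element as spelled here. B2M held 2 overlapping interferon elements, at -144 and -138, and an NF-kB match at -125. TAP1 held 2 interferon elements, at -134 and -128, and an NF-kB match at -72, with another at 23 past its start site. TAP2 had 1 interferon element, at -58, and TAPBP had 2, at -20 and -14, with an NF-kB match at -56. Over the whole windows, the NF-kB consensus was found in 5 of the 8 genes (HLA-B, HLA-C, B2M, TAP1 and TAPBP) and in 11.3% of 34794 distinct RefSeq windows of that length. The interferon element was found in 5 of the 8 (B2M, TAP1, TAP2, TAPBP and PSMB8) and in 3.57% of all windows. PSMB9, which had the largest called difference in each knockdown, held neither of these words. The CRE-like word TGACGC of the X2 box was found in 3 (HLA-B, HLA-C and TAP2; 9.09% of all windows). The inverted CCAAT word ATTGG was found in 5 (34.6%), and the GAS word TTCNNNGAA in 2 (7.67%). The second TAP1 window and the PSMB9 window face away from each other and have 13 bases in common. A match is a run of letters and was not tested as a binding site. Only the letters given were searched for, so a gene with no match may still hold another form of the element.

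In the siRAB3IP libraries the transporter, tapasin, the light chain, HLA-E and PSMB9 were higher than in control. Of the 9 genes 6 were called higher and 0 lower by edgeR's quasi-likelihood test at a Benjamini-Hochberg adjusted p under 0.05, where 6.58% of the 22331 genes tested were called higher, 5.38% lower and 12% in either direction. Called means past that threshold throughout. The largest called differences were those of PSMB9 (2.23-fold), TAPBP (1.83-fold), TAP2 (1.77-fold) and TAP1 (1.57-fold). The median log2 fold change of the 9 was 0.44, beside -0.01 over all genes tested.

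In the siCAMSAP1 libraries 5 of the 9 genes were called higher and 0 lower, where 0.519% of genes tested were called higher, 0.542% lower and 1.06% in either direction. They were PSMB9 (3.12-fold), TAP1 (1.64-fold), TAPBP (1.63-fold), HLA-C (1.29-fold) and HLA-E (1.27-fold). The median log2 fold change of the 9 was 0.58, beside 0 over all genes. That middle value was PSMB8 itself, which was not called and had 10 and 21 fragments beside 5 and 16 in control. Next to it in rank stood HLA-C (0.37) and HLA-B (0.59), so this median is not read as larger than that of siRAB3IP. The adjusted p-values of HLA-C and HLA-E were 0.0486 and 0.0491 and that of HLA-B was 0.0504, so these 3 lay on either side of the threshold by small margins. Both knockdowns were set against the same 2 control libraries, so these results are not independent of each other.

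Both libraries of the knockdown lay above both control libraries for 7 of the 9 genes in siRAB3IP and for 8 in siCAMSAP1, where 25.9% and 20.6% of all genes tested did so. PSMB8 was the gene whose siRAB3IP libraries both lay below the controls, as 27.8% of genes did, and no class I gene lay below in siCAMSAP1, where 20.9% did. All 9 passed the filter on low counts, 8 of them with at least 0.256 CPM before scaling in all 6 libraries and PSMB8 in 2.

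**Figure D1:**
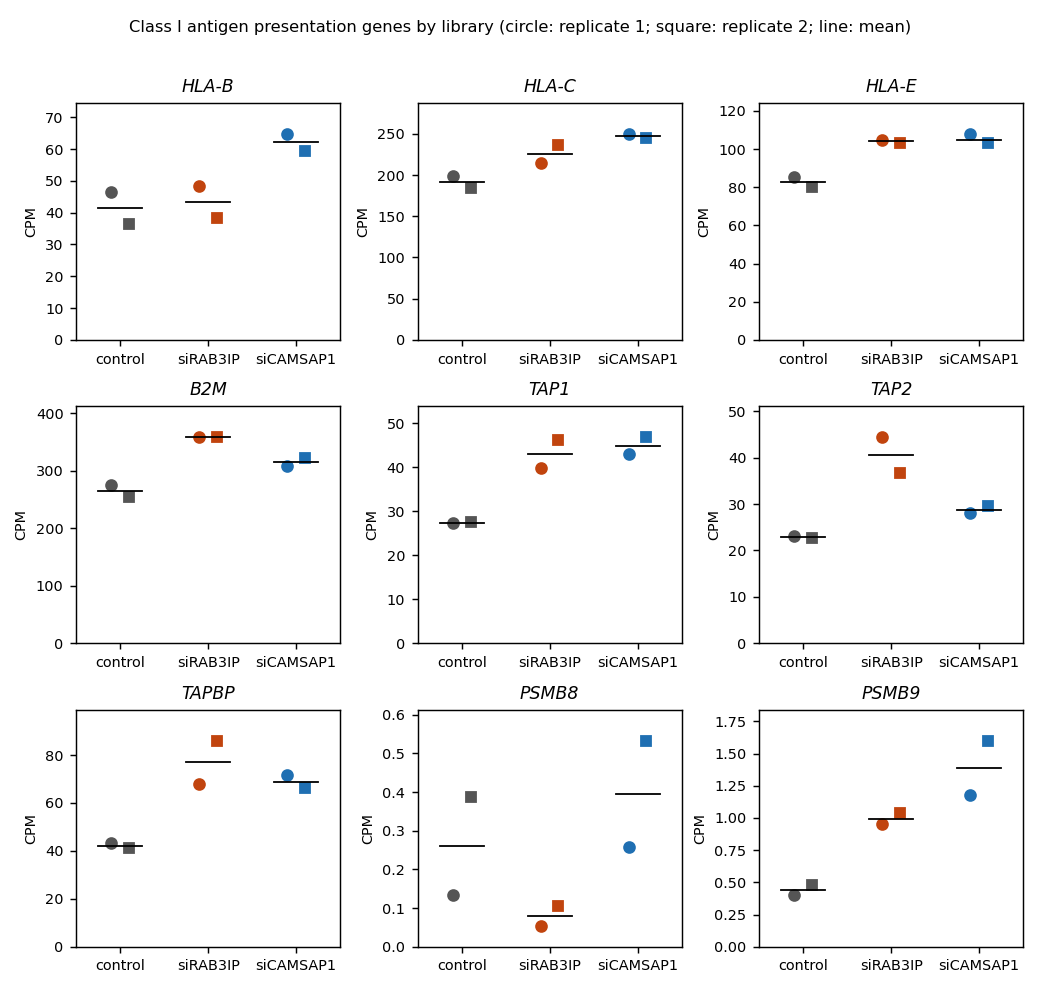
CPM (vertical axes, each starting at 0) of the 9 class I genes in the 6 libraries, by group on the horizontal axes. Circles are replicate 1, squares replicate 2 and lines group means. TAP1 shows 27.3 and 27.5 in control below 39.9 to 46.8 in both knockdowns, while HLA-B overlaps between control and siRAB3IP.

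The heavy chains are given first, and their fold changes were not tested against each other. HLA-B (ENSG00000234745, hg19 chromosome 6, 31321649 to 31324965, minus strand), a classical heavy chain, was at 46.5 and 36.3 CPM in control, 48.5 and 38.3 in siRAB3IP and 64.8 and 59.5 in siCAMSAP1. The siRAB3IP and control libraries overlapped, and both siCAMSAP1 libraries lay above all 4 others. Its log2 fold change was 0.07 ± 0.13 (SE) in siRAB3IP (adjusted p = 0.791, edgeR) and 0.59 ± 0.13 in siCAMSAP1 (adjusted p = 0.0504). A fit with a replicate block called the siCAMSAP1 difference (adjusted p = 1.38e-06, edgeR). The siCAMSAP1 difference passed the threshold with DESeq2 (adjusted p = 0.00226), with limma-voom (0.047), with no filter on low counts (2.63e-07) and without control replicate 1 (0.00155), but not in the other fits run without a replicate block.

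HLA-C (ENSG00000204525, chromosome 6, 31236526 to 31239907, minus strand), another classical heavy chain, was at 199 and 184 CPM in control, 215 and 236 in siRAB3IP and 250 and 245 in siCAMSAP1. The 3 groups did not overlap and stood in that order. HLA-C differed from control by a log2 fold change of 0.24 ± 0.08 in siRAB3IP (adjusted p = 0.076, edgeR) and 0.37 ± 0.08 in siCAMSAP1 (adjusted p = 0.0486). DESeq2 placed the siRAB3IP difference under the threshold (adjusted p = 0.0458), as did edgeR with a replicate block (0.00312). The call in siCAMSAP1 was lost under upper-quartile scaling (0.0503), with genes of at least 5 CPM (0.0603), in a fit of the compared groups alone (0.0828), with no robust moderation (0.0567), and without control replicate 2 (0.26), siCAMSAP1 replicate 1 (0.245) or siCAMSAP1 replicate 2 (0.163).

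HLA-E (ENSG00000204592, chromosome 6, 30457244 to 30461982, plus strand) is a nonclassical heavy chain whose complexes are read by NKG2 receptors of natural killer cells. It was at 85.1 and 80.0 CPM in control, 105 and 103 in siRAB3IP and 108 and 103 in siCAMSAP1. Both knockdowns lay above control and did not separate from each other. HLA-E had a log2 fold change of 0.34 ± 0.08 in siRAB3IP (adjusted p = 0.0128, edgeR) and 0.35 ± 0.08 in siCAMSAP1 (adjusted p = 0.0491). The siRAB3IP call was lost without control replicate 2 (0.0715), siRAB3IP replicate 1 (0.0896) or siRAB3IP replicate 2 (0.0665). The siCAMSAP1 call was lost in the same 7 alternatives as that of HLA-C, with adjusted p from 0.0524 to 0.317, and also with limma-voom (0.0535).

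HLA genes vary between genomes and resemble each other. Of the 50-base windows of their reference transcripts, 2.54% of those of HLA-B, 6.71% of those of HLA-C and 5.13% of those of HLA-E occur in another gene's transcripts. Fragments from alleles that differ from the reference, or from such windows, may have been lost or counted elsewhere, so levels of the heavy chains are less certain than those of B2M, which has no such window.

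B2M (ENSG00000166710, hg19 chromosome 15, 45003675 to 45011075, plus strand), the light chain shared by all class I molecules, was at 275 and 255 CPM in control, 358 and 358 in siRAB3IP and 308 and 322 in siCAMSAP1. The siRAB3IP libraries were highest, the siCAMSAP1 libraries lay between them and control, and no groups overlapped. B2M had a log2 fold change of 0.44 ± 0.08 in siRAB3IP (adjusted p = 0.00299, edgeR) and 0.25 ± 0.08 in siCAMSAP1 (adjusted p = 0.182), and the direct difference was 0.19 ± 0.08 (adjusted p = 0.163). The siCAMSAP1 difference (adjusted p = 0.00361, edgeR) and the direct difference (0.0136) were called only with a replicate block. The siRAB3IP call held in every alternative run other than the grouping by record titles.

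TAP1 and TAP2 form the peptide transporter as a heterodimer. TAP1 (ENSG00000168394, chromosome 6, 32812986 to 32821755, minus strand) was at 27.3 and 27.5 CPM in control, 39.9 and 46.1 in siRAB3IP and 43.0 and 46.8 in siCAMSAP1. All 4 knockdown libraries lay above control and the knockdowns overlapped. Its log2 fold change was 0.65 ± 0.09 in siRAB3IP (adjusted p = 0.000805, edgeR) and 0.71 ± 0.09 in siCAMSAP1 (adjusted p = 0.00301).

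TAP2 (ENSG00000204267, chromosome 6, 32789610 to 32806557, minus strand) was at 23.1 and 22.6 CPM in control, 44.4 and 36.6 in siRAB3IP and 28.0 and 29.5 in siCAMSAP1. The siCAMSAP1 libraries lay above control and below siRAB3IP, with no overlap. The log2 fold change was 0.82 ± 0.10 in siRAB3IP (adjusted p = 0.000292, edgeR) and 0.33 ± 0.10 in siCAMSAP1 (adjusted p = 0.185). The siCAMSAP1 difference of TAP2 was called only with a replicate block (adjusted p = 0.0126, edgeR). Of its exonic bases 32.3% are also annotated to ENSG00000250264, and fragments lying on more than 1 gene were not assigned. The overlapping gene itself had at most 2 fragments in a library.

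TAPBP (ENSG00000231925, chromosome 6, 33267471 to 33282164, minus strand) encodes tapasin, which joins the transporter to the heavy chain. It was at 43.2 and 41.1 CPM in control, 68.1 and 86.0 in siRAB3IP and 71.6 and 66.1 in siCAMSAP1. Both knockdowns lay above control and overlapped each other, siRAB3IP with the wider spread. The log2 fold change was 0.87 ± 0.10 in siRAB3IP (adjusted p = 0.000247, edgeR) and 0.71 ± 0.10 in siCAMSAP1 (adjusted p = 0.00618). The calls of TAP1 and TAPBP in both knockdowns, and of TAP2 in siRAB3IP, held in every alternative run other than the grouping by record titles.

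PSMB8 and PSMB9 are catalytic subunits of the immunoproteasome, which replace PSMB5 and PSMB6 of the standard proteasome, and both were near the limit of detection. PSMB9 (ENSG00000240065, chromosome 6, 32811913 to 32827362, plus strand) was at 0.401 and 0.483 CPM in control, 0.951 and 1.04 in siRAB3IP and 1.18 and 1.6 in siCAMSAP1. These rested on 15 and 20, 36 and 39, and 46 and 63 fragments, and the 3 groups did not overlap. The log2 fold change was 1.16 ± 0.35 in siRAB3IP (adjusted p = 0.0443, edgeR) and 1.64 ± 0.33 in siCAMSAP1 (adjusted p = 0.0322). The siRAB3IP call was lost in the fit of the compared groups alone (0.0602), with limma-voom (0.072), and without control replicate 1 (0.153), control replicate 2 (0.0983), siRAB3IP replicate 1 (0.117) or siRAB3IP replicate 2 (0.173). The siCAMSAP1 call was lost in the fit of the compared groups alone (0.0667), with limma-voom (0.0618), and without control replicate 1 (0.074), control replicate 2 (0.0764) or siCAMSAP1 replicate 2 (0.201).

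PSMB8 (ENSG00000204264, chromosome 6, 32808494 to 32812480, minus strand) was at 0.134 and 0.387 CPM in control, 0.0528 and 0.106 in siRAB3IP and 0.258 and 0.533 in siCAMSAP1. These values stand for 5 and 16, 2 and 4, and 10 and 21 fragments, and 3 fragments, taken as the floor, correspond to 0.0757 to 0.0803 CPM. The siRAB3IP libraries were the lowest, around the floor, and siCAMSAP1 overlapped control. The log2 fold change was -1.69 ± 0.81 in siRAB3IP (adjusted p = 0.209, edgeR) and 0.58 ± 0.63 in siCAMSAP1 (adjusted p = 0.789), so no difference was detectable at this depth. PSMB8-AS1, a noncoding gene between PSMB8, TAP1 and PSMB9, overlaps 21.2% of the exonic bases of PSMB8, 9.6% of those of TAP1 and 5.7% of those of PSMB9, and had 3 to 8 fragments per library. Reads were counted without strand, so fragments of PSMB8, of PSMB9 and of this antisense gene cannot be fully told apart.

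**Figure D2:**
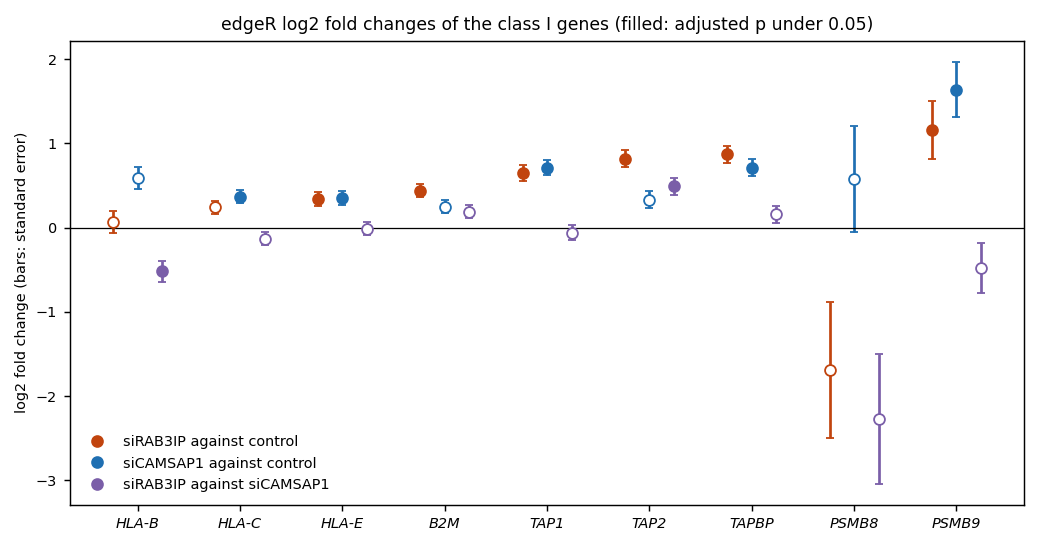
Log2 fold change (vertical axis, bars: standard error) of each class I gene (horizontal axis) in the 3 comparisons, by edgeR. Filled points are called at an adjusted p under 0.05: 6 in siRAB3IP against control, 5 in siCAMSAP1 against control and 2 between the knockdowns.

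Which class I genes told the knockdowns apart was tested directly. In siRAB3IP against siCAMSAP1, 1 of the 9 was called higher and 1 lower, where 5.14% of genes tested were called higher, 4.15% lower and 9.29% in either direction. TAP2 was higher in siRAB3IP by a log2 fold change of 0.49 ± 0.10 (adjusted p = 0.0081, edgeR), and HLA-B was lower, at -0.52 ± 0.13 (adjusted p = 0.0239). The call of TAP2 was lost without siRAB3IP replicate 1 (0.108), and that of HLA-B without siRAB3IP replicate 2 (0.21) or siCAMSAP1 replicate 1 (0.142).

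The other 7 were not called in that comparison by the main fit. Their log2 fold changes were -0.13 ± 0.08 for HLA-C (adjusted p = 0.363, edgeR), -0.01 ± 0.08 for HLA-E (0.949), -0.06 ± 0.09 for TAP1 (0.752), 0.16 ± 0.10 for TAPBP (0.381), -0.48 ± 0.30 for PSMB9 (0.371) and -2.27 ± 0.77 for PSMB8 (0.0856, and 0.0401 with no filter on low counts), beside the value of B2M given above. With a replicate block, B2M (adjusted p = 0.0136, edgeR) and PSMB8 (0.0231) were called there, though the groups share only replicate numbers. Both siRAB3IP libraries lay above both siCAMSAP1 libraries for B2M and TAP2, as 25.8% of all genes did, and below them for HLA-B, HLA-C, PSMB8 and PSMB9, as 26.4% did.

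Levels of the class I genes were compared per kilobase of exon. This length includes bases shared with another gene, where fragments were not assigned. They are 32.3% of TAP2, 21.2% of PSMB8, 18.0% of HLA-B, 9.6% of TAP1 and 5.7% of PSMB9. Levels of these genes, here and in the ratios below, are thus too low by an amount that was not corrected. In control, B2M stood at 84.1 ± 4.44 CPM per kb (SD, n = 2) and HLA-C at 76.4 ± 4.46, a gap smaller than the sum of their SDs. HLA-E followed at 27.7 ± 1.22, HLA-B at 13.7 ± 2.40, TAPBP at 8.34 ± 0.290, TAP1 at 5.78 ± 0.0256 and TAP2 at 3.58 ± 0.0458, each apart from its neighbours by more than that. PSMB9 (0.144 ± 0.0190) and PSMB8 (0.130 ± 0.0892) came last and overlapped. In siRAB3IP the order of means was altered in 1 place, with TAPBP (15.2 ± 2.51) and HLA-B (14.4 ± 2.39) exchanged and within their spread. TAPBP has no shared bases. The part of the uncorrected length in this exchange, and in the gap between TAP1 and TAP2, was not tested. In siCAMSAP1 the order was that of control, with B2M at 100 ± 3.14 and HLA-C at 98.6 ± 1.35.

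**Figure D3:**
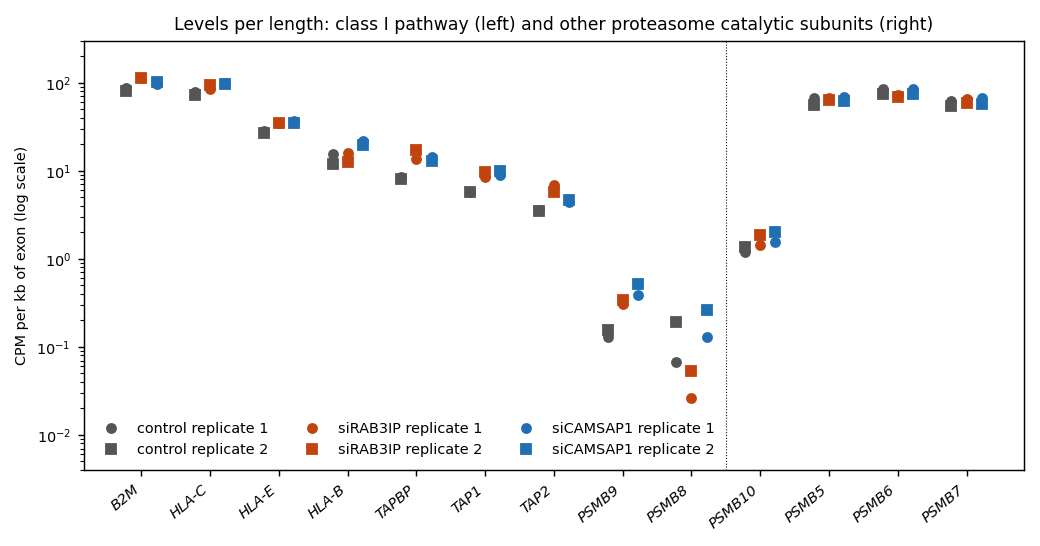
CPM per kb of exon (vertical axis, log scale) for the 9 class I genes and, to the right of the dotted line, PSMB10 and the standard catalytic subunits PSMB5, PSMB6 and PSMB7 (horizontal axis). Symbols are single libraries. PSMB8 and PSMB9 sit far below PSMB5 and PSMB6, the subunits they replace, in all 6 libraries.

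The balance of heavy and light chain mRNA was read as a ratio within each library. Per kb, HLA-C was at 91.2% and 90.5% of the CPM of B2M in control, 75.4% and 82.8% in siRAB3IP and 102% and 95.6% in siCAMSAP1. The siRAB3IP libraries were lowest and the siCAMSAP1 libraries highest, with no overlap. HLA-B was 17.7% and 14.9% of B2M in control, 14.2% and 11.2% in siRAB3IP and 22% and 19.3% in siCAMSAP1. With 2 libraries against 2, a two-sided exact permutation test cannot go below p = 0.333, and these ratios are given as a description with no test.

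For the proteasome, PSMB9 per kb was 0.153% and 0.21% of PSMB6 in control, 0.431% and 0.489% in siRAB3IP and 0.45% and 0.701% in siCAMSAP1. PSMB8 was 0.039% to 0.428% of PSMB5 across the 6 libraries, and the groups of control and siCAMSAP1 overlapped. PSMB10, the third inducible catalytic subunit, was 1.95% to 3.56% of PSMB7. In every library the inducible subunits were thus a small share of the standard ones at the level of mRNA.

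Other genes of the pathway were read from gene lists. Beside each count stand the shares over all genes tested, 6.58% higher and 5.38% lower in siRAB3IP and 0.519% and 0.542% in siCAMSAP1, and medians over all genes of -0.01 and 0. List medians are log2 fold changes, for siRAB3IP first and siCAMSAP1 second. In peptide loading and trimming, 6 of 11 tested genes were called higher in siRAB3IP and 0 lower, and 1 higher in siCAMSAP1, with medians of 0.25 and 0.12. ERAP2 and ERAP1 are aminopeptidases that trim peptides in the endoplasmic reticulum, and in siRAB3IP they were 1.70-fold (adjusted p = 0.0132, edgeR) and 1.44-fold (0.0038) of control. The others called there were the chaperones HSPA5 (1.39-fold), CALR (1.37-fold), CANX (1.22-fold) and PDIA3 (1.19-fold), which also fold proteins outside the class I pathway. ERAP1 was the gene called in siCAMSAP1 (1.45-fold, adjusted p = 0.0204), with ERAP2 at 1.70-fold and an adjusted p of 0.0581. CALR and HSPA5 were called higher, and the glucosyltransferase UGGT1 lower, in siRAB3IP against siCAMSAP1.

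Among PSMB10, the activator subunits PSME1, PSME2 and PSME3 and the maturation factor POMP, 2 of 5 were called higher in siRAB3IP, PSME2 (1.34-fold, adjusted p = 0.00743, edgeR) and PSME1 (1.31-fold, adjusted p = 0.032), and 0 in siCAMSAP1, where 3 had an unadjusted p under 0.05, all higher, and DESeq2 called 1. PSMB10 was at 2.22 and 2.51 CPM in control, 2.69 and 3.46 in siRAB3IP and 2.86 and 3.76 in siCAMSAP1, and was not called (adjusted p = 0.314 and 0.401). Of 13 standard core subunits edgeR and DESeq2 called 0 in either knockdown, and at an unadjusted p under 0.05 edgeR gave 0 in siRAB3IP and 1, lower, in siCAMSAP1. PSMB5, PSMB6 and PSMB7 were 1.06-fold, 0.882-fold and 1.08-fold of control in siRAB3IP, with adjusted p of 0.612, 0.231 and 0.518.

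Of 20 transcriptional regulators of class I genes, 2 were called higher in siRAB3IP and 1 in siCAMSAP1, with medians of -0.02 and 0.04. The share in siRAB3IP was close to that over all genes. IRF1, an activator that binds interferon elements, was at 15.0 and 15.2 CPM in control, 21.6 and 24 in siRAB3IP (adjusted p = 0.00214, edgeR) and 24.2 and 23.9 in siCAMSAP1 (adjusted p = 0.0065). NLRC5, the class I coactivator, was at 9.67 and 10.1 CPM in control, 11.9 and 16.3 in siRAB3IP (adjusted p = 0.0335) and 14.6 and 15.8 in siCAMSAP1 (adjusted p = 0.0584).

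Of 5 NF-kB subunit genes, 3 were called higher in siRAB3IP and 2 in siCAMSAP1, with medians of 0.29 and 0.3. RELB was at 5.45 and 3.94 CPM in control, 15.7 and 12.5 in siRAB3IP (3.01-fold, adjusted p = 8.72e-05, edgeR) and 13.4 and 13.9 in siCAMSAP1 (2.91-fold, adjusted p = 0.000831). NFKB2 was 1.84-fold (adjusted p = 0.000496) and 1.77-fold (adjusted p = 0.00507), and RELA was 1.22-fold in siRAB3IP (adjusted p = 0.0385).

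The 5 interferon genes looked up were under the floor of 3 fragments or just above it. IFNG and IFNL2 had no fragment in any library, where the floor allows up to 0.0757 to 0.0803 CPM. IFNB1 had fragments in 1 library (siRAB3IP replicate 2, 0.106 CPM), IFNL1 reached at most 0.0967 CPM and IFNL3 at most 0.0266. Of 9 tested receptor and kinase genes, 0 were called higher in siRAB3IP and 0 in either direction in siCAMSAP1, where 2 had an unadjusted p under 0.05, both higher, and DESeq2 called 0. JAK1, a kinase of interferon receptors, was lower in siRAB3IP, at 110 and 102 CPM beside 162 and 154 in control (adjusted p = 0.000482, edgeR), and was at 180 and 184 in siCAMSAP1 (adjusted p = 0.293).

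Of 35 interferon-stimulated genes outside the class I pathway, 8 were called higher and 1 lower in siRAB3IP, and 1 higher in siCAMSAP1. In siRAB3IP, GBP1 was 6.85-fold of control, from 0.241 and 0.725 CPM to 2.22 and 4.55 (adjusted p = 0.0019, edgeR). The chemokine gene CXCL10 was 5.54-fold (adjusted p = 0.00544), at 1.06 CPM or less in every library, and IFI44 5.22-fold (adjusted p = 0.00673), at 3.67 or less. CXCL10 had 35 and 40 fragments in siRAB3IP beside 4 to 16 in the others. Outside siRAB3IP it reached the minimum of the filter only in siCAMSAP1 replicate 2, so it was tested only through the group where it was high. GBP3, a guanylate-binding protein gene called in both, was at 1.68 and 1.91 CPM in control, 6.10 and 7.02 in siRAB3IP (adjusted p = 0.000152, edgeR) and 3.01 and 4.29 in siCAMSAP1 (adjusted p = 0.0415). IFIT1 was the one called lower in siRAB3IP, at 0.501-fold of control (adjusted p = 0.00147). The median log2 fold change of this list was 0.25 in siRAB3IP and 0.07 in siCAMSAP1. Of 12 tested RNA and DNA sensors, 3 were called higher (OAS1, OAS3 and EIF2AK2) and 2 lower (STING1 and ADAR) in siRAB3IP, and 1 higher, OAS3, in siCAMSAP1, with medians of 0.17 and 0.14. OAS1 reached the minimum of the filter only in the 2 siRAB3IP libraries, with 14 and 21 fragments beside 1 to 6 in the others, so it was tested only through the group where it was high.

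Genes whose products are read by the same immune cells followed. Of 13 tested ligands of natural killer cell receptors and checkpoint ligands, 7 were called higher in siRAB3IP and 1 in siCAMSAP1, with medians of 0.63 and 0.13. MICA, a stress-induced ligand of NKG2D, was at 17.9 and 16.0 CPM in control, 30.0 and 31.9 in siRAB3IP (adjusted p = 0.00015, edgeR) and 27.2 and 26.7 in siCAMSAP1 (adjusted p = 0.00601). MICB, another such ligand, was 1.57-fold of control in siRAB3IP (adjusted p = 0.000563) and 1.18-fold in siCAMSAP1 (adjusted p = 0.3). Of 4 other tested class I and class I-like genes, HLA-F was called higher in siCAMSAP1 (1.47-fold, adjusted p = 0.0407) and FCGRT, the heavy chain of the neonatal Fc receptor, lower in siRAB3IP (0.655-fold, adjusted p = 0.000776). Of 13 class II presentation genes, 2 were called higher (CTSS and HLA-DMA) and 1 lower (HLA-DOA) in siRAB3IP, and 0 in siCAMSAP1 (4 at an unadjusted p under 0.05, 2 in each direction, and 1 by DESeq2). Of 8 tested regulators of class I turnover, TRIM25 was called higher and MARCHF9 lower in siRAB3IP, and 0 were called in siCAMSAP1 (1 at an unadjusted p under 0.05, higher, and 0 by DESeq2).

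**Figure D4:**
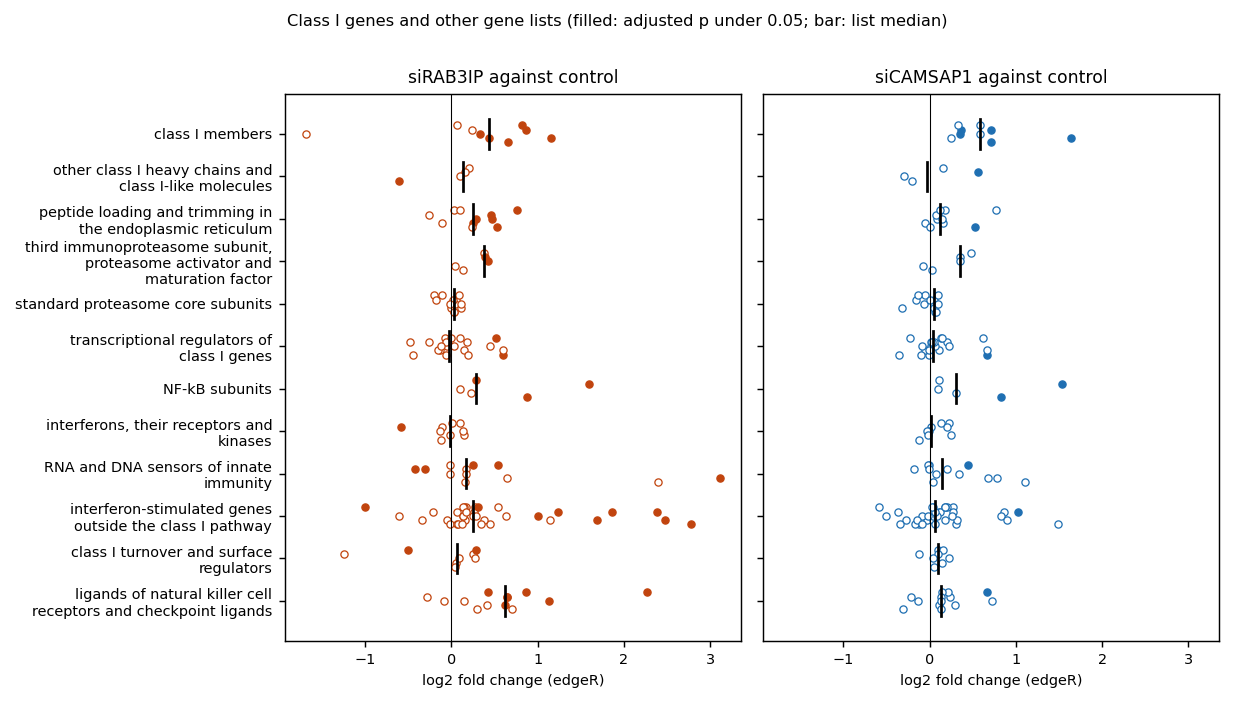
Log2 fold change by edgeR (horizontal axis) of each tested gene, in rows by gene list, for each knockdown against control. Points are genes, filled where called at an adjusted p under 0.05, and bars are list medians. The class I genes have medians of 0.44 and 0.58, the second being the value of PSMB8, and the standard proteasome subunits 0.03 and 0.05.

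The 117 other tested genes in the chromosome 6 span of the class I genes were counted in the same way. Of these, 8 (6.84%) were called higher and 7 lower in siRAB3IP, beside 6.58% of all genes higher. In siCAMSAP1, 3 (2.56%) were called higher and 0 lower, beside 0.519% of all genes higher. These comparisons had median log2 fold changes of 0 and -0.04. The 5 genes whose log2 CPM most resembled the mean profile of the class I genes over the 6 libraries, among 11447 with a mean of at least 5 CPM, were PARP9 (Pearson r = 0.993), SHLD2P3 (0.991), ERO1B (0.988), RGS3 (0.988) and SNAPC5 (0.987). None of these 5 was called in either knockdown against control, and 1.13% of the genes compared had an r over 0.9. The mean profile gave each class I gene equal weight, PSMB8 at 2 to 21 fragments included. It stood at 0.208 and 0.348 in siCAMSAP1, above 0.005 and 0.088 in siRAB3IP. PSMB8 had the largest log2 fold change between the knockdowns (-2.27), and a profile without it was not made. The 6 libraries share their groups and depth, so the likeness is a description.

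The authors' deposited tables, made with DESeq2, list 5 of the 9 genes for siRAB3IP (B2M, HLA-E, TAP1, TAP2 and TAPBP) among 2192 genes, and 6 for siCAMSAP1 (B2M, HLA-B, HLA-C, HLA-E, TAP1 and TAPBP) among 474. In the authors' deposited table for siCAMSAP1, HLA-B has a log2 fold change of 0.58 with an adjusted p of 7.87e-06, and B2M 0.25 with 0.0263. With edgeR here these had adjusted p-values of 0.0504 and 0.182, while DESeq2 put HLA-B under the threshold (0.00226) and B2M not (0.0893).

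Assigned fragments ranged from 37379217 to 39637733 per library. The host genes of the targeted circles were not called in any comparison with control: RAB3IP was 1.12-fold in siRAB3IP (adjusted p = 0.225, edgeR) and CAMSAP1 1.01-fold in siCAMSAP1 (adjusted p = 0.951). Counts per gene from poly(A) RNA do not show the level of a circular RNA, so the knockdown itself was not checked. Of the genes used as HEK293 markers, VIM was at 174 to 330 CPM and CDH2 at 70.9 to 84.9 in the 6 libraries. Summed CPM of 14 blood and immune cell markers was 5.43 to 5.73 in control, 6.57 to 7.05 in siRAB3IP and 6.31 to 7.56 in siCAMSAP1, none was at 0 in every library, and 2 of 5 tested were called higher in siRAB3IP (CD3D and ITGAM). CD3D reached the minimum of the filter only in the 2 siRAB3IP libraries, at 0.555 and 0.532 CPM beside at most 0.107 elsewhere, and so was tested only through them. Their part in the class I differences was not tested. In bulk RNA, more cells expressing a gene and more RNA per cell cannot be told apart.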

How the data were processed

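The authors aligned reads to hg19 with STAR and tested genes with DESeq2 (versions not given in the sources used here), per the submitters' processing notes. Deposited counts give fragments assigned to each gene by featureCounts 1.6.0, per the file headers, without a strand setting, on primary alignments with both ends mapped. Fragments on more than 1 gene were not assigned, and multi-mapped fragments were counted at their primary alignment. The signal columns of the deposited tables are counts that the authors divided by a size factor, and each matched 1 count column (tolerance 1e-09 in log2 ratio), which gave the groups. The tables' log2 fold changes, SE, score and p-values are the authors'.

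The quasi-likelihood test of edgeR 4.0.16 (R 4.3.3) was run on these counts with TMM scaling, robust moderation and the default filter, which kept 22331 genes. All 3 groups shared 1 model, leaving 3 residual degrees of freedom, with Benjamini-Hochberg adjustment at 0.05. CPM are TMM-scaled, and a floor of 3 counts covers counting error only. Alternatives were grouping by record titles, RLE and upper-quartile scaling, no filter, a mean of at least 5 CPM, a replicate block, the compared groups alone, limma-voom (limma 3.58.1), DESeq2 1.42.0 and leaving out each library. A fit with no robust moderation was added after seeing the data. On simulated counts, 88% of genes changed 1.5-fold and 100% of those changed 2-fold were recovered for siRAB3IP and for siCAMSAP1, and 4.6% and 6% of calls were false. All changed genes there had a mean over 5 CPM, so these shares do not cover PSMB8 and PSMB9. The simulated libraries also lacked the deviations that same-numbered libraries share in the data. Each simulated gene had the spread typical of its level, so the recovered shares do not cover genes that vary more than that. Replicates differed by more than counting noise (chi-square per degree of freedom 7.95 to 12).

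Of 195 entries in 13 lists, 193 were matched to a gene. The members and lists were chosen with earlier results of these data known. Named genes were the 9 members, up to 4 called genes per other list and comparison by size, further pathway and host genes, and the 5 most alike. A few of these genes are left out of the text. CANX, PDIA3, IFIT1, EIF2AK2, the interferon genes and the markers were picked with their values in view. Tables and figures used Python 3.11.15, pandas 2.3.3 and matplotlib 3.10.9.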

Additional observations from a re-analysis of the deposited data

How the results depend on the processing

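With 2 libraries a group, the calls depend on each library and on which labels define the groups. Grouping by record titles left 0 genes and 0 of the 9 class I genes called in each comparison, and turned the log2 fold changes of HLA-E (-0.02), B2M (-0.17), TAP2 (-0.41) and PSMB8 (1.76) in siRAB3IP against control, of TAP2 (-0.03) in siCAMSAP1 against control, and of HLA-B (0.05), B2M (-0.27), TAP2 (-0.38), TAPBP (-0.43) and PSMB8 (0.01) in siRAB3IP against siCAMSAP1. The cause was not tested. Depth limits PSMB8, at 2 to 21 fragments, and PSMB9, at 15 to 63.

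Leaving out each library gave 1160 to 2334 genes and 4 to 5 class I genes called in siRAB3IP (2671 and 6 with all), 86 to 425 and 2 to 5 in siCAMSAP1 (237 and 5), and 719 to 1261 and 1 to 2 between the knockdowns (2075 and 2). The siRAB3IP count was 1160 without siRAB3IP replicate 2, 1307 without siRAB3IP replicate 1 and 1680 without control replicate 2. The siCAMSAP1 count was 86 without siCAMSAP1 replicate 2, 127 without siCAMSAP1 replicate 1, 135 without control replicate 2 and 425 without control replicate 1. Between the knockdowns it was 719, 1133, 976 and 1261 without siRAB3IP replicate 2, siRAB3IP replicate 1, siCAMSAP1 replicate 1 and siCAMSAP1 replicate 2. Some values that were not called changed sign, with ranges over the libraries left out of -0.11 to 0.26 for HLA-B in siRAB3IP, -0.03 to 1.54 for PSMB8 in siCAMSAP1, and, between the knockdowns, -0.17 to 0.04 for TAP1, -0.04 to 0.03 for HLA-E and -0.02 to 0.32 for TAPBP.

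In siCAMSAP1 against control, the class I genes called numbered 3 under upper-quartile scaling (of 265 genes called), 2 with genes of at least 5 CPM (of 171, with PSMB8 and PSMB9 not tested), 2 in the fit of the compared groups alone (of 152) and 3 with no robust moderation (of 210), beside 5 of 237. All genes called there numbered 676 with no filter and 388 with DESeq2. Upper-quartile scaling split them into 102 higher and 163 lower, beside 116 and 121.

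The groups share only replicate numbers, and same-numbered libraries deviated together (correlations 0.45 to 0.53). With a replicate block, 5590, 1646 and 4833 genes were called in siRAB3IP, in siCAMSAP1 and between the knockdowns, and 7, 8 and 4 of the class I genes. The block added HLA-C in siRAB3IP (adjusted p = 0.00312, edgeR), HLA-B (1.38e-06), B2M (0.00361) and TAP2 (0.0126) in siCAMSAP1, and B2M (0.0136) and PSMB8 (0.0231) between the knockdowns, and ended no call.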
